A study of Saccharomyces cerevisiae with 8 samples.

Results

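The genes described here encode the proteins of the small, 40S subunit of the cytosolic ribosome of budding yeast, Saccharomyces cerevisiae. They were found by symbol: a probe set was taken where every gene that the platform annotation lists for it carries an RPS symbol of the cytosolic family. This gave 68 of the 9275 probe sets on the array, of which 47 list 1 gene and 21 list 2 paralogs. Together they list 55 of the 5923 genes named on the array. Of these 55 genes, 33 had a probe set of their own and 22 were only on a shared one. A single member, 1 of 2 probe sets of RPS10B, with log2 signals from 1.03 to 5.46, stayed below the low-signal filter, so that 67 members were tested.

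A yeast cell that grows fast spends much of its transcription on ribosomes, and it keeps the genes of both subunits under common control. Rap1 and Fhl1 sit at their promoters, the coactivator Ifh1 is recruited to Fhl1 when nutrients are present, and the corepressor Crf1 can take its place under starvation, with the TOR pathway upstream. Most RPS genes exist as a pair of paralogs, named A and B, that encode the same or nearly the same protein. The assembled subunit has a head, a platform and a body, and the members are ordered here by lists of the proteins of each part. The lists are approximate at the borders of the parts, as for RPS2, which was counted with the platform.

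The series compared a stb3-null strain with wild type, BY4742, a haploid of mating type alpha. Stb3 is a protein that binds a promoter element of ribosome biogenesis genes. The 4 groups were stb3-null cells 10 min after 2% glucose, stb3-null cells after 3 days in YPD, wild-type cells 10 min after 2% glucose and wild-type cells after 3 days in YPD. All cells were grown for 3 days in YPD, a rich medium, and the glucose groups received the sugar after that time. Each group had 2 arrays, named A and B. The labels do not say that a pair came from separate cultures, so the p-values here cover the spread between arrays that may be technical repeats. They also do not say how the deletion was made or whether the strain is 1 clone. Values are log2 signals as deposited, and a log2 change of 1 is a doubling.

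The array medians over all probe sets lay between 7.53 and 7.69. The 2% trimmed means of the antilog signals were less even, 437 to 504 at 3 days and 625 to 673 after glucose. The STB3 probe set read 2.50 to 3.30 on the stb3-null arrays and 7.62 to 9.23 on the wild-type arrays, as the labels say. The 4 genes specific to alpha cells passed the filter, with signals from 6.88 (MF(ALPHA)2) to 13.20 (MF(ALPHA)1) over all arrays. Of 6 genes specific to a cells, STE2, BAR1 and AGA2 did not, with no signal above 6.01, while MFA1 (6.99 to 7.81), MFA2 (6.55 to 7.13) and STE6 (5.14 to 6.79) did, so that MFA1 overlapped MF(ALPHA)2 (6.88 to 8.45). The wild-type arrays of one group stood apart from each other, also for the RPS genes. On wild-type array A at 3 days 66 of the 67 members lay below array B, by a median of 0.95, and after glucose 62 of 67 did, by a median of 0.37. Array A minus array B had a median of 0.34 over the members in stb3-null at 3 days and of -0.02 after glucose. Over all 6178 probe sets tested, the same medians were -0.06 and 0.01 in wild type and 0.12 and -0.01 in stb3-null. In bulk RNA, a change in the share of cells that respond and a change in RNA per cell cannot be told apart.

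RPS genes rose almost throughout within 10 min of glucose, in both strains. In stb3-null cells 59 of the 67 tested members rose and none fell, with a median log2 change of 1.55, or 2.94-fold. In wild type 64 of 67 rose, none fell, and the median was 1.97, or 3.90-fold. Over all probe sets tested, 26.6% were called higher and 11.7% lower in stb3-null, and 30.6% higher and 17.8% lower in wild type, with medians of 0.23 and 0.20. The 59 members called in stb3-null were all called in wild type as well, 5 more were called in wild type alone, and 3 in neither strain. A call is an adjusted p below 0.05 in a limma fit over all 6178 probe sets with Benjamini-Hochberg adjustment.

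The groups hardly overlapped. Both stb3-null glucose arrays lay above both 3-day arrays for 65 of 67 members, against 50.7% of all probe sets, and both wild-type glucose arrays did so for 64 of 67, against 42.9%. Quantile normalisation, which takes the median of all probe sets to 0.01 in stb3-null and -0.02 in wild type, left 31 members called in stb3-null and 55 in wild type, with member medians of 0.92 and 1.35, against 32% and 48.4% of all probe sets called in either direction. Scaling the arrays to a common trimmed mean left 44 members called in stb3-null and 61 in wild type, with member medians of 1.06 and 1.48. With that scaling 40.6% and 52.2% of all probe sets were called in either direction. Without 1 stb3-null array the count in stb3-null was 23 (3 days B), 32 (glucose B), 34 (glucose A) or 44 (3 days A), all of them higher. The share of all probe sets called in these fits was 15.6%, 17.4%, 18.8% and 18.8% in the same order.

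**Figure D1:**
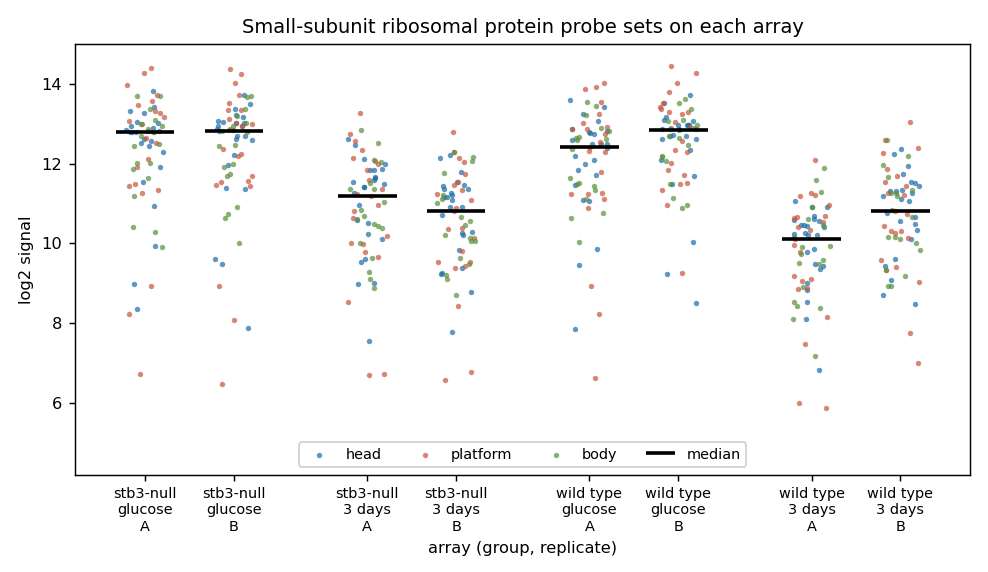
Log2 signal of the 67 tested RPS probe sets (vertical axis) on each of the 8 arrays (horizontal axis), with 1 point per probe set coloured by the part of the subunit and a black bar at the median. The medians are 12.78 and 12.81 in stb3-null after glucose, 11.18 and 10.82 in stb3-null at 3 days, 12.41 and 12.85 on the wild-type glucose arrays, and 10.10 and 10.81 on those at 3 days, where array A is the lowest of all.

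The head of the subunit carries the anticodon ends of the tRNAs and much of the path of the mRNA. Of its 25 tested probe sets, 21 rose in stb3-null with a median log2 change of 1.40, and 24 rose in wild type with a median of 1.90. RPS28B, a head protein gene whose mRNA level is known to be held down by its own protein through decay, had the largest rise of all members in both strains. Its i probe set, named by the suffix that marks an incomplete set of probes in the manufacturer's scheme, read 12.82 and 12.94 in stb3-null after glucose, against 9.60 and 9.37 at 3 days. In wild type it read 12.60 and 12.97 after glucose, against 9.0 and 9.61 at 3 days. All glucose arrays lay far above all 3-day arrays, and the strains lay close to each other. The rise was 10.5-fold in stb3-null (log2 change 3.40, SE 0.28, limma adjusted p = 0.000172) and 11.2-fold in wild type (3.48, SE 0.28, limma adjusted p = 3.57e-05). The second probe set of the gene has the suffix f, which marks a family of similar sequences, and rose by 2.60 (SE 0.29) in stb3-null and 2.79 (SE 0.29) in wild type.

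Other head genes rose by less. RPS3, whose protein guards the mRNA entry, read 13.82 and 13.72 in stb3-null after glucose against 12.61 and 12.21 at 3 days, and 13.60 and 13.73 on the wild-type glucose arrays, against 11.07 and 12.36 on those at 3 days. Glucose arrays lay above 3-day arrays in both strains, with rises of 2.57-fold and 3.86-fold in stb3-null and wild type (log2 changes 1.36 and 1.95, SE 0.38 each). RPS31, which encodes a fusion of ubiquitin and a head protein, rose by 1.39 in stb3-null and 1.90 in wild type (SE 0.31 each). RPS15, whose protein is needed to export the 40S precursor from the nucleus, rose by 1.79 and 1.99 in the same order (SE 0.37 each). RPS12, a gene of the beak at the edge of the head, rose in wild type (1.51, SE 0.34) and was not called in stb3-null, where it read 13.32 and 13.06 after glucose against 12.47 and 12.15 at 3 days (0.88, limma adjusted p = 0.0696).

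The smallest changes in the head came from i probe sets. RPS25B, whose protein is known from initiation on viral RNAs, read 8.98 and 9.47 on its i probe set in stb3-null after glucose against 8.99 and 8.79 at 3 days, and 9.46 and 9.22 on the wild-type glucose arrays, against 8.54 and 8.71 on those at 3 days. The stb3-null groups overlapped at 8.98 and 8.99, while the wild-type groups did not overlap. The log2 change was 0.34 in stb3-null (SE 0.24, limma adjusted p = 0.292) and 0.72 in wild type (SE 0.24, limma adjusted p = 0.033). RPS25A read 9.93 and 9.61 on its i probe set in stb3-null after glucose against 9.01 and 9.26 at 3 days, and 9.85 and 10.04 on the wild-type glucose arrays, against 8.84 and 9.42 on those at 3 days. No groups overlapped, and only the wild-type change was called (0.82, SE 0.26, limma adjusted p = 0.0294, against 0.63 and 0.0855 in stb3-null). Both wild-type calls on these i probe sets were lost under all 3 other scalings and in 4 of the 8 fits without 1 array. The f probe sets of the same genes rose in both strains, by 1.70 and 1.96 for RPS25B and by 1.45 and 1.89 for RPS25A.

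The 4 probe sets shared by RPS16A and RPS16B, which encode a head protein whose tail reaches the tRNA, differed in the same way. The dimmer of their 2 i probe sets read 8.36 and 7.87 in stb3-null after glucose against 7.55 and 7.78 at 3 days, and 7.86 and 8.50 on the wild-type glucose arrays, against 6.83 and 8.49 on those at 3 days. Wild-type array B read the same before and after glucose, within 0.01, and the change was not called in either strain (0.45 and 0.52, limma adjusted p = 0.466 and 0.377). Without wild-type array A at 3 days the value in wild type is -0.31. The other 3 probe sets of the pair were called in both strains and rose by up to 1.81 in stb3-null and 2.70 in wild type. With arrays scaled to a common trimmed mean, which moves the median of all probe sets to -0.27 in stb3-null, the stb3-null values of this probe set and of the RPS25B one turn to -0.05 and -0.16.

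The platform holds the mRNA exit and the site at which the end of 18S rRNA is trimmed. Of its 23 tested probe sets, 20 rose in stb3-null with a median log2 change of 1.68, and 21 rose in wild type with a median of 2.08. RPS0B had the largest rise in the platform in stb3-null. RPS0 proteins bind RPS21 on the back of the subunit. RPS0B read 13.06 and 12.99 on its probe set without suffix in stb3-null after glucose against 10.81 and 10.38 at 3 days, and 12.75 and 13.24 on the wild-type glucose arrays, against 9.77 and 10.31 on those at 3 days. The glucose arrays were well above the 3-day arrays in both strains, and the rise was 5.39-fold in stb3-null (2.43, SE 0.30, limma adjusted p = 0.000492) and 7.75-fold in wild type (2.96, SE 0.30, limma adjusted p = 8.04e-05). Its second probe set rose by 2.37 (SE 0.32) and 2.82 (SE 0.32), and RPS2 by 1.78 and 2.08 (SE 0.35 each), in the same order of strains.

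RPS22A and RPS22B encode a protein that binds the central domain of 18S rRNA. RPS22A rose in both strains, and RPS22B was called in wild type alone and on 1 of 3 probe sets. RPS22A read 12.79 and 13.01 in stb3-null after glucose against 10.97 and 10.37 at 3 days, and 12.55 and 13.29 on the wild-type glucose arrays, against 9.96 and 10.74 on those at 3 days. It rose 4.69-fold in stb3-null (2.23, SE 0.36, limma adjusted p = 0.00194) and 5.94-fold in wild type (2.57, SE 0.36, limma adjusted p = 0.000467), with no overlap. RPS22B has introns, one of which hosts a small nucleolar RNA, and its 3 probe sets carry the suffixes i, f and none. On the i probe set it read 8.23 and 8.08 in stb3-null after glucose against 6.70 and 6.56 at 3 days, and 8.23 and 10.95 on the wild-type glucose arrays, against 5.87 and 7.0 on those at 3 days. Wild-type glucose array A sat with both stb3-null glucose arrays, and array B stood 2.72 above it. This probe set rose in wild type (3.16, SE 0.71, limma adjusted p = 0.00535) and was not called in stb3-null (1.52, SE 0.71, limma adjusted p = 0.116), though both stb3-null glucose arrays lay above both 3-day arrays.

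The other RPS22B probe sets had the same high array. On the one without suffix the gene read 6.71 and 6.48 in stb3-null after glucose against 6.72 and 6.76 at 3 days, and 6.61 and 9.26 on the wild-type glucose arrays, against 5.99 and 7.76 on those at 3 days. It was the single member with a log2 change below 0 in stb3-null, -0.15 (SE 0.76, limma adjusted p = 0.893), and its wild-type change of 1.06 (limma adjusted p = 0.273) turned to -0.26 without glucose array B. On the f probe set it read 8.94 and 8.93 in stb3-null after glucose against 8.53 and 8.42 at 3 days, and 8.94 and 11.48 on the wild-type glucose arrays, against 7.47 and 9.40 on those at 3 days. Wild-type array B was again the higher of its pair in both conditions, and neither change was called (0.46 in stb3-null, which is -0.04 with arrays scaled to a common trimmed mean, and 1.78 in wild type). RPS14B, the neighbour of RPS22A on its chromosome, rose by 1.03 in stb3-null (SE 0.27, limma adjusted p = 0.0153) and 2.16 in wild type (SE 0.27, limma adjusted p = 0.000232).

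The body holds the decoding centre and the foot of the subunit. Of its 19 tested probe sets, 18 rose in stb3-null with a median of 1.55, and all 19 rose in wild type with a median of 1.96. RPS9A and RPS9B, which encode a protein that binds early in assembly and guards accuracy of decoding, had the largest rises of the body in wild type. RPS9B read 12.48 and 12.45 on its f probe set in stb3-null after glucose against 10.43 and 10.20 at 3 days, and 12.36 and 12.69 on the wild-type glucose arrays, against 8.90 and 10.12 on those at 3 days. The glucose arrays of both strains were alike, and wild-type array A at 3 days was the lowest. The rise was 4.44-fold in stb3-null (2.15, SE 0.37, limma adjusted p = 0.00249) and 8.08-fold in wild type (3.01, SE 0.37, limma adjusted p = 0.000216). RPS9A read 11.65 and 11.70 in stb3-null after glucose against 10.00 and 9.63 at 3 days, and 11.52 and 12.46 on the wild-type glucose arrays, against 8.37 and 9.82 on those at 3 days. It rose by 1.86 (SE 0.46, limma adjusted p = 0.0128) and 2.90 (SE 0.46, limma adjusted p = 0.000924) in stb3-null and wild type.

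A probe set shared by RPS9A and RPS9B was the only body member not called in stb3-null. It read 9.90 and 10.00 there after glucose against 8.87 and 8.70 at 3 days, and 10.03 and 11.48 on the wild-type glucose arrays, against 7.18 and 8.93 on those at 3 days. The stb3-null groups did not overlap, and the change was 1.17 (SE 0.57, limma adjusted p = 0.132), against a called 2.70 in wild type (SE 0.57, limma adjusted p = 0.00385). The 3 probe sets of RPS23A and RPS23B, whose protein lines the decoding centre, rose by 1.32 to 1.79 in stb3-null and 1.35 to 1.84 in wild type. The lowest in wild type, with the suffix s for shared, read 13.37 and 13.37 in stb3-null after glucose against 12.04 and 12.06 at 3 days, and 12.81 and 13.37 on the wild-type glucose arrays, against 11.29 and 12.19 on those at 3 days. Its groups did not overlap, and the wild-type change of 1.35 was not called with quantile normalisation (0.54).

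Shared probe sets and those without a suffix rose as well. Among the 21 probe sets that list 2 paralogs, 19 rose in stb3-null (median 1.54, range 0.45 to 2.17) and 20 in wild type (median 1.85, range 0.52 to 2.77). Among the 20 whose names carry no suffix, 18 rose in stb3-null (median 1.52) and 19 in wild type (median 1.98). Where a gene has several probe sets, they gave a close response for RPS0A (1.84 and 1.92 in stb3-null) and RPS26A (1.34 and 1.35), and a wide one for RPS22B (-0.15 to 1.52) and RPS25B (0.34 to 1.70).

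Paralogs were compared within each array. For 13 duplicated RPS genes with a probe set for A and one for B, the log2 signal of B was taken from that of A, and the change of this difference with glucose was tested among all 33 such A and B pairs in the table. The probe set with the highest mean stood for a gene. A difference between 2 probe sets at one time has no meaning as a level, so only its change is read.

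Of the 13 RPS pairs, 1 was called for a difference in response, RPS28, in both strains and with the larger rise in RPS28B. This share is below that of all 33 pairs, of which 12.1% were called in stb3-null and 9.09% in wild type. RPS28A minus RPS28B was 0.27 and 0.23 in stb3-null after glucose against 1.13 and 1.1 at 3 days, and 0.09 and 0.15 on the wild-type glucose arrays, against 0.80 and 1.02 on those at 3 days. The 4 glucose arrays lay below the 4 arrays at 3 days without overlap. RPS28A rose by 1.73 and RPS28B by 2.60 in stb3-null, a difference of -0.87 (SE 0.17, limma adjusted p = 0.0182). In wild type RPS28A rose by 2.00 and RPS28B by 2.79, a difference of -0.79 (SE 0.17, limma adjusted p = 0.0168). Both probe sets have the family suffix, so each may also read the other paralog. With family probe sets left out, an alternative chosen after the data were seen, the i probe sets gave, among 28 pairs, -1.82 (SE 0.21, limma adjusted p = 0.000552) and -1.93 (SE 0.21, limma adjusted p = 0.000351) in stb3-null and wild type. The stb3-null call was lost when any 1 of the 4 stb3-null arrays was left out (differences of -0.88 to -0.85). The wild-type call was lost without wild-type glucose A or B (-0.76 and -0.82), without stb3-null glucose A or B (-0.79 each), and with only the wild-type groups in the fit (-0.79, limma adjusted p = 0.222).

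**Figure D2:**
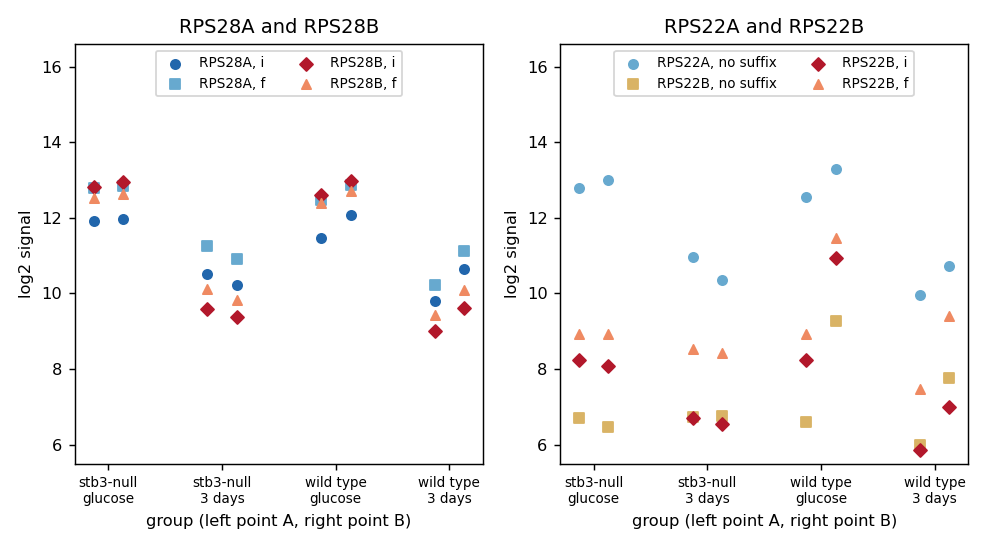
Log2 signal (vertical axis) of every single-gene probe set of RPS28A and RPS28B (left) and of RPS22A and RPS22B (right) in the 4 groups (horizontal axis), with array A as the left and array B as the right point of each group; i and f are the suffixes of the probe sets. RPS28B on its i probe set is 12.82 and 12.94 in stb3-null after glucose against 9.60 and 9.37 at 3 days, and the 3 RPS22B probe sets stand high on wild-type glucose array B, at 10.95, 9.26 and 11.48.

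No other RPS pair was called. RPS0A minus RPS0B changed by -0.59 in stb3-null (SE 0.28, limma adjusted p = 0.216) and by -0.99 in wild type (SE 0.28), where the limma adjusted p of 0.05 was not below the threshold. RPS26 proteins sit at the mRNA exit, and RPS26A minus RPS26B changed by -0.50 (SE 0.29) and -0.94 (SE 0.29, limma adjusted p = 0.0554) in stb3-null and wild type. RPS22A minus RPS22B changed by 1.77 in stb3-null (SE 0.61, limma adjusted p = 0.111) and by 0.79 in wild type (SE 0.61, limma adjusted p = 0.398). With family probe sets left out the RPS22 values were 0.70 in stb3-null (limma adjusted p = 0.461) and -0.58 in wild type, and without wild-type glucose array A the wild-type value was -0.11. The stb3-null difference was called in 8 of 23 other settings, among them the fits without wild-type glucose A or B. RPS10A and RPS10B were the closest pair, at -0.04 in stb3-null and 0.00 in wild type (SE 0.20 each). Both probe sets of this pair have the family suffix, as do those of RPS9, RPS25 and RPS29. Each may therefore also read the other paralog. The count of 1 RPS pair called in wild type was not stable. It was 0 without wild-type glucose A or B, beside 6.06% and 9.09% of all pairs. With quantile normalisation it was 2, beside 18.2%. Without wild-type array A at 3 days it was 8: RPS0, RPS1, RPS14, RPS21, RPS26, RPS27, RPS28 and RPS29. Of all 33 pairs, 45.5% were called in that fit. The same fit called 5 RPS pairs between the strains at 3 days, beside 18.2% of all pairs, and 2 for the difference of responses, beside 6.06%, where the fit of all arrays called none.

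**Figure D3:**
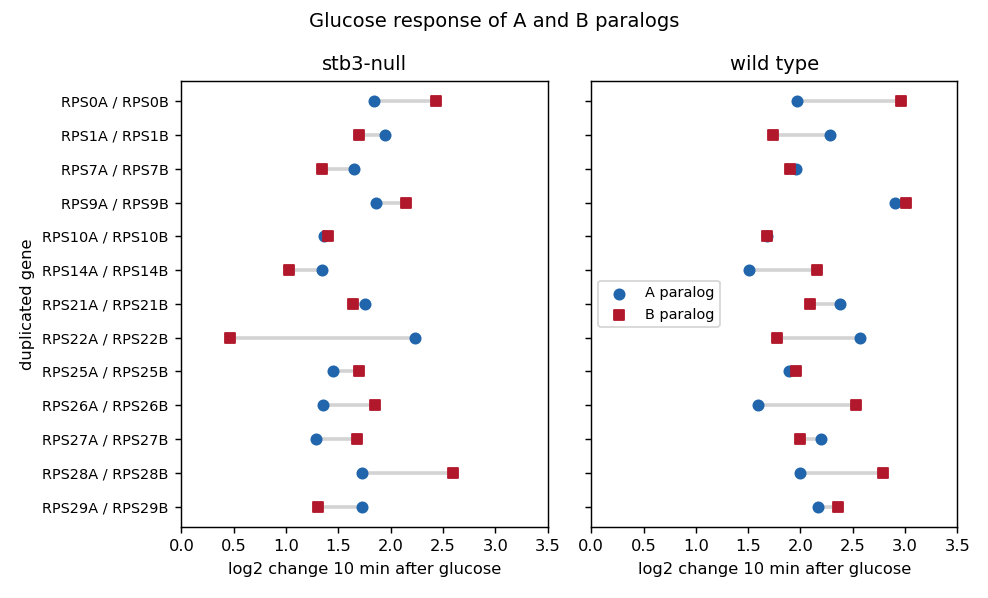
Log2 change 10 min after glucose (horizontal axis) of the A paralog (circle) and the B paralog (square) for 13 duplicated RPS genes, in stb3-null (left) and wild type (right); a grey line joins a pair, and no error is drawn. RPS28 is the pair called in both strains, with 1.73 for A and 2.60 for B in stb3-null and 2.00 and 2.79 in wild type.

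At 3 days, before glucose, no RPS probe set was called between the strains, while nearly all leaned one way. The stb3-null mean lay above the wild-type mean for 66 of 67 members, with a median log2 difference of 0.44, or 1.36-fold, against 54.5% of all probe sets and a median of 0.03. In the limma fit 11 members had an unadjusted p below 0.05, and their lowest adjusted p was 0.36. Over all probe sets 0.0324% were called, 2 in number, of which STB3 is one. Both stb3-null arrays lay above both wild-type arrays for 22 of 67 members, against 19.7% of all probe sets. They lay below both for none, and the share of all probe sets below was not computed.

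This lean rested on one array. The stb3-null mean was above wild-type array A in 67 of 67 members and above wild-type array B in 32 of 67. Without wild-type array A the median difference was -0.01, and without array B it was 0.92. With both B arrays of wild type left out 33 members were called, all higher in stb3-null, against 4.27% of all probe sets in that fit. With both A arrays left out 6 of 67 were called, 3 higher and 3 lower, against 18.6% of all probe sets. These fits were added after the data were seen, leave 1 array in each wild-type group, and assume that it varies like the stb3-null arrays. The wild-type arrays at 3 days had member medians of 10.10 and 10.81, and large-subunit medians of 10.24 and 11.15, so the gap between A and B covers both subunits. Whether A or B stands for wild type was not tested.

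**Figure D4:**
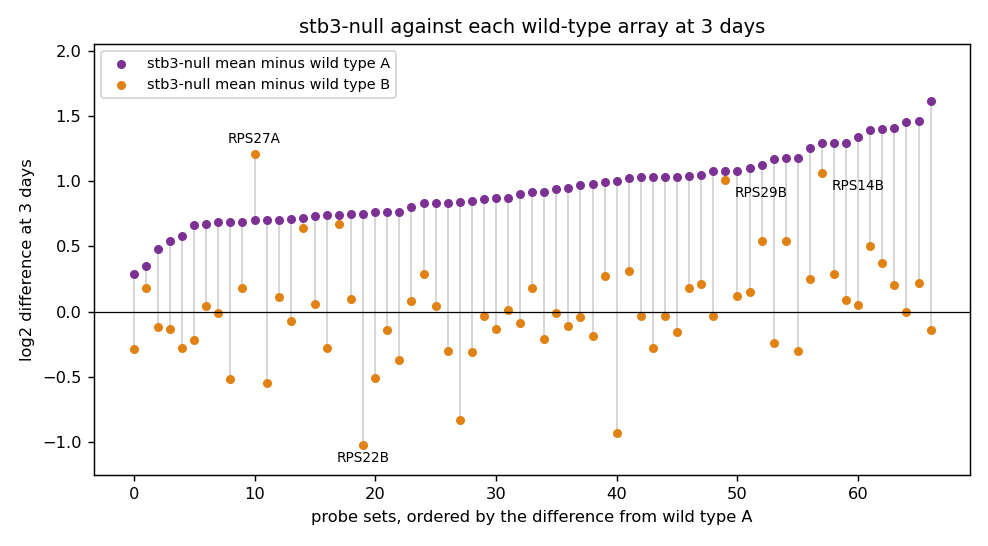
Log2 signal at 3 days in stb3-null (mean of both arrays) minus wild-type array A (purple) and minus wild-type array B (orange), for the 67 tested RPS probe sets ordered by the purple value. The purple points are above 0 in 67 of 67 and the orange ones in 32 of 67. RPS14B stands at 1.29 and 1.06 against A and B and RPS29B at 1.08 and 1.01. RPS27A, at 0.70 and 1.21, is above both and further above B.

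In the members with the largest differences at 3 days, wild-type array A lay little below array B (-0.23 and -0.07) or above it (0.51). RPS14B, whose splicing is known to be held back by its own protein, read 10.64 and 10.14 in stb3-null against 9.10 and 9.33 in wild type. RPS29B, a small zinc-binding protein gene of the head, read 11.99 and 11.54 in stb3-null against 10.69 and 10.76 in wild type. RPS27A, a zinc-binding protein gene of the platform, read 11.83 and 11.46 in stb3-null against 10.95 and 10.44 in wild type. In each of these, both stb3-null arrays were above both wild-type arrays. The differences were 1.18 for RPS14B (SE 0.27, 2.26-fold, limma adjusted p = 0.36), 1.04 for RPS29B (SE 0.25) and 0.95 for RPS27A (SE 0.27), and none was called. The paralogs RPS14A, RPS29A and RPS27B differed by 0.24, 0.62 and 0.50, and their wild-type arrays lay further apart, at 10.42 and 11.44, 10.56 and 11.51, and 10.63 and 11.69.

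After glucose, again no RPS probe set was called between the strains. With all arrays in the fit, the median difference was smaller than at 3 days. The median log2 difference, stb3-null minus wild type, was 0.08, with 47 of 67 members above 0, no unadjusted p below 0.05 in limma and a lowest adjusted p of 0.577. Over all probe sets 0.0162% were called, 1 in number, which was STB3. Both stb3-null arrays lay above both wild-type arrays for 9 of 67 members, against 23.2% of all probe sets. They lay below both for 2, and the share of all probe sets below was not computed. The median turned to -0.07 without wild-type glucose array A and to 0.22 without array B. Without wild-type array A at 3 days it was 0.07, and the median at 3 days was -0.01, so it was then not the smaller one. The 3 largest differences were those of the RPS22B probe sets, -1.44 (i), -1.34 (no suffix) and -1.28 (f), with standard errors of 0.71 to 0.76. They rest on wild-type array B: without it they shrink to between -0.08 and 0.00, and without array A the first grows to -2.80.

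The log2 change with glucose was smaller in stb3-null for 65 of 67 members, and the difference of responses was called for none. The median of the difference, the stb3-null response minus the wild-type response, was -0.36, against 0.01 over all probe sets, of which 48.8% lay below 0 and 0% were called. In the limma fit 4 members had an unadjusted p below 0.05, and the lowest adjusted p was 0.752. The values furthest from 0 were -1.63 and -1.32 for RPS22B (i and f) and -1.54 for the i probe set shared by RPS9A and RPS9B. Without 1 array they ran from -2.99 (wild-type glucose A left out) to -0.27 (glucose B), from -2.59 to -0.05 (the same arrays) and from -2.41 (wild-type 3 days B) to -0.66 (3 days A), and none was called in those fits. Without wild-type array A at 3 days the median was 0.08, and without array B it was -0.82. The wild-type response alone moved to 1.52 and 2.42 in the same 2 fits.

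**Figure D5:**
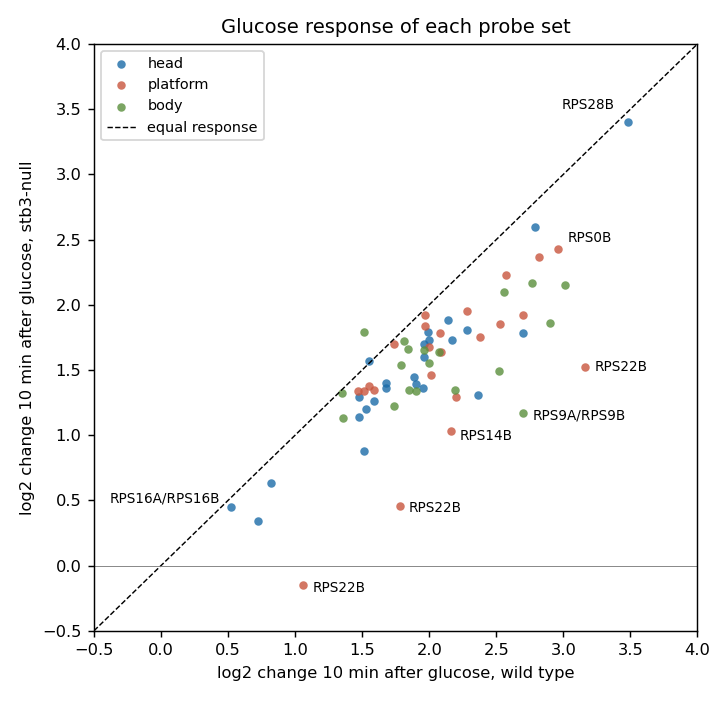
Log2 change 10 min after glucose in stb3-null (vertical axis) against wild type (horizontal axis) for the 67 tested RPS probe sets, coloured by the part of the subunit; the dashed line marks equal response. In 65 of 67 the stb3-null change is the smaller, RPS28B stands at 3.40 and 3.48, and the 3 RPS22B probe sets lie to the right of the line.

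Genes of the large subunit rose too. Of 89 tested large-subunit probe sets, 81 rose in stb3-null (median 1.61) and 84 in wild type (median 1.94), none fell, and the strain difference at 3 days had a median of 0.47. All 5 genes of the ribosomal stalk rose in both strains, with medians of 1.23 and 1.96. As in the small subunit, the response was mostly the smaller one in stb3-null. The difference of responses had a median of -0.35 in the large subunit, with 77 of 89 below 0. For the stalk genes it was -0.47, with all 5 below 0. The shares called higher over all probe sets were 26.6% in stb3-null and 30.6% in wild type.

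Of 23 regulators of ribosomal protein genes, 5 rose and 2 fell in each strain, shares below the 26.6% higher and 11.7% lower of all probe sets in stb3-null and the 30.6% and 17.8% in wild type. The risen genes were not all the same. HMO1 was called in stb3-null alone (1.14, against 0.66 in wild type), and CKA2 in wild type alone (0.95, against 0.58 in stb3-null). IFH1, the coactivator gene, read 10.21 and 10.32 in stb3-null after glucose against 8.47 and 8.41 at 3 days, and 10.36 and 10.87 on the wild-type glucose arrays, against 8.27 and 8.52 on those at 3 days. It rose by 1.82 in stb3-null (SE 0.24, limma adjusted p = 0.000731) and 2.22 in wild type (SE 0.24, limma adjusted p = 0.000123), without overlap. UTP22, whose protein joins Ifh1 in a complex with casein kinase, rose by 1.30 and 2.29 (SE 0.26 each), and TOD6 by 1.1 and 1.38 (SE 0.25 each). CRF1, the corepressor gene, read 6.69 and 6.71 in stb3-null after glucose against 8.08 and 7.92 at 3 days, and 6.27 and 6.52 on the wild-type glucose arrays, against 7.43 and 8.55 on those at 3 days. It fell in both strains, with log2 changes of -1.3 (SE 0.32, limma adjusted p = 0.012) and -1.60 (SE 0.32, limma adjusted p = 0.00309). RAP1 (0.17 and 0.13) and FHL1 (0.49 and 0.03) were not called in stb3-null or wild type.

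Of 20 genes that mature the 40S subunit or carry its proteins, 17 rose in stb3-null (median 1.25) and 18 in wild type (median 1.90). None fell, and 26.6% and 30.6% of all probe sets were called higher in the same order. RRP12, an export factor of pre-ribosomes, rose by 2.40 in stb3-null and 2.97 in wild type (SE 0.31 each). EMG1, which methylates 18S rRNA, rose by 1.80 and 3.31 (SE 0.28 each), and TSR2, the chaperone of RPS26, by 1.97 and 2.81 (SE 0.25 each). FAP7, an assembly factor that works with RPS14, rose by 2.11 and 2.62 (SE 0.20 each). ASC1, the gene of a scaffold protein on the head, rose by 2.13 and 2.28 (SE 0.51 each). The difference of responses was not called for any gene of either list. Its median was -0.51 over these 20 genes, with 18 below 0, and 0.01 over the 23 regulators.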

How the data were processed

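Total RNA of 8 yeast samples was hybridised to 1 Affymetrix array each by the manufacturer's protocol, per the labels' protocols. The authors deposited 1 log2 signal per probe set and array. MAS5, the manufacturer's summary algorithm, is named in the submitters' processing notes with no version or role. A normalisation between arrays was not given in the sources used here. Deposited values run from 0 to 14.55, and base 2 was inferred from that range. Arrays give no counts, so their number limits the precision.

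Probe sets were named through the platform annotation (6504 with 1 gene, 328 with several, 2443 with none). The filter kept named probe sets whose mean antilog signal reached 10% of the mean 2% trimmed mean, a log2 signal of 5.80, which left 6178. Values were fitted as deposited, with no pseudocount, in limma 3.58.1 (R 4.3.3): 4 group means, 1 shared spread, an eBayes trend, 4 residual and 5.32 prior degrees of freedom, two-sided tests. Paralog pairs were fitted likewise over 33 pairs. An exact permutation test of 2 against 2 arrays cannot go below p = 0.333. The fit was tested on simulated data. Named members are the 5 largest and 5 smallest responses per strain, the 3 largest strain differences and differences of response, and each called pair or the 3 largest; other members illustrate a subunit part. The members, lists and tests were chosen with earlier results of these data known. RPS3, RPS31, RPS15, RPS2, RPS12, RAP1 and FHL1 were named after their values were seen. The main fit did not pair arrays by the letters A and B. Correlations of the A minus B differences between groups ran from -0.18 to 0.23, the highest between the wild-type groups. Whether the letters pair arrays cannot be told from these values. Promoter motifs and sequences were not analysed here.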

Additional observations from a re-analysis of the deposited data

How the results depend on the processing

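Of 23 other settings, 8 left out 1 array. The count of risen members in stb3-null was 31 with quantile normalisation, 44 with a common trimmed mean and 23 to 62 without 1 array. With 1 probe set per gene, which leaves 33 members, it was 31 in stb3-null and 32 in wild type. Over all probe sets, quantile normalisation gave 1064 higher and 915 lower in stb3-null, and a common trimmed mean 762 and 1755, against 1646 and 721. In wild type these were 1548 and 1448, then 1129 and 2108, against 1891 and 1097. With both B or both A wild-type arrays left out, an alternative chosen after seeing the data, members called were 33 or 6 at 3 days, 1 or 4 after glucose, and 1 or 5 for the difference of responses, beside 4.27% or 18.6%, 4.99% or 16.3%, and 0.308% or 15.2% of all probe sets; without 1 array they were 0 to 1 after glucose. Member medians at 3 days ran from -0.01 to 0.92 without 1 array and were -0.01 without both A arrays. After glucose they were -0.02 with quantile normalisation, -0.07 to 0.22 without 1 array and -0.06 without both A arrays, and for the difference of responses -0.82 to 0.08 without 1 array. RPS pairs called numbered 2 with quantile normalisation or the replicate block, 3 with a pseudocount, no variance trend or array weights, 5 with only the groups compared, 6 and 9 without both B or both A wild-type arrays, and 0 to 8 without 1 array; of all 33 pairs, up to 57.6% were called in 1 of these fits. A common trimmed mean gave -0.16 for RPS25B, -0.05 for the dimmer i probe set of RPS16A and RPS16B and -0.04 for the f probe set of RPS22B in stb3-null. Without 1 array, the wild-type response was -0.31 to 1.35 for that RPS16 probe set and -0.26 to 2.39 for RPS22B without suffix, and the RPS22 pair -0.11 to 1.70 (-0.58 without family probe sets). The cause was not tested. The letters A and B mark no shared culture in the labels. With the replicate block, 59 members rose in stb3-null and 65 in wild type, beside 37.4% and 48% of all probe sets called in either direction. No member was called between strains or for the difference of responses with that block.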
